A study of Mus musculus with 14 samples.

Results

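The genes described here encode subunits of the phagocyte NADPH oxidase, namely Ncf1 (p47phox), Ncf4 (p40phox), Cyba (p22phox) and Cybb (gp91phox), read in repeatedly activated murine Th1 cells after miR-31 antagonism. All probe sets whose annotation gave only the symbol of one of these genes were taken, which made 4 of 18194 genes with 8 of the 45037 probe sets on the array that are no controls, 3 for Ncf1, 1 for Ncf4, 1 for Cyba and 3 for Cybb. The group was selected on the readout, because Ncf1 was one of the genes with a large difference between the treatments at 72 h in an earlier reading of these arrays. Its 72 h difference is therefore given as a description, without a test. The other subunits were added as parts of the same enzyme.

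The cells came from naive CD4+CD62Lhi T cells of OTII mice aged 6 to 10 weeks, whose T cells carry a transgenic receptor for an ovalbumin peptide. They were stimulated repeatedly with irradiated antigen-presenting cells (APCs) under Th1 conditions with IL-12 and anti-IL-4 and, from the second round, IL-2. After the fourth round of stimulation, these Th1 rep cells received either Antagomir-31, which binds and blocks miR-31, or the unspecific control Antagomir-SCR, both at 1 µM, and were reactivated with plate-bound anti-CD3 and anti-CD28 in the same medium. RNA was taken after 36, 48 and 72 h and hybridized to 14 Affymetrix arrays, with 2 arrays of each treatment at 36 h, 2 more at 48 h and another 3 at 72 h. Whether the replicates came from separate cultures or mice, and whether mice were pooled, is not given in the sources used here, so the p-values rest on the spread among these arrays alone, and that spread may be technical. The arrays do not read mature miR-31, so its loss was not checked on them.

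The phagocyte NADPH oxidase moves electrons from NADPH across a membrane to oxygen and so makes superoxide. Cybb and Cyba form the membrane-bound cytochrome, while cytosolic subunits, among them the organizer Ncf1 and Ncf4, and a Rac GTPase join it from the cytosol upon stimulation. The enzyme is best known from the respiratory burst of neutrophils and macrophages, where its loss causes chronic granulomatous disease. In T cells it has been described downstream of the T cell receptor, and rodents with impaired Ncf1 are prone to T cell dependent arthritis.

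The array values are intensities that the authors normalized by RMA (robust multi-array average). The medians of the 36 h arrays (23.4 to 23.8), the 48 h arrays (21.8 to 22.1) and the 72 h arrays (27.9 to 28.4) differed, so treatments were compared within a time. Correlations between arrays of one time were 0.9971 to 0.998. The cells carried the T cell genes, with summed intensities of 24940 to 33340 over the 10 T and Th1 markers on the array, led by Ifng, Cd3d and Thy1. Most markers of other cells were dim. By their mean over all arrays, 8 of 8 B cell, 7 of 9 macrophage and monocyte, 8 of 9 dendritic cell, 9 of 9 neutrophil and 5 of 6 CD8 T and NK cell markers lay below an intensity of 64. Among the exceptions, Klrk1, an activating receptor of NK and CD8 T cells, read 2296 to 3416, and Ctss, a lysosomal protease of antigen-presenting cells, read 351.5 to 520.3. In RNA from a whole culture, fewer cells of a type and less RNA per cell cannot be told apart.

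The sequences that bear on the group are the agent's target and the promoters of the subunits. The seed of miR-31, bases 2 to 8, is the stretch by which a miRNA finds its targets and is shown in capitals (RefSeq, GRCm38.p6, chr4:88910614-88910635, minus strand).
mmu-miR-31-5p: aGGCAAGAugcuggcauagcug
None of the 4 genes is on the study's list of putative miR-31 targets. The promoters below run from 250 bases before to 50 bases after the start of transcription and come from RefSeq (GRCm38.p6), as Ncf1 at chr5:134229576-134229875, Cyba at chr8:122432891-122433190 and Cybb at chrX:9469275-9469574, all on the minus strand and printed 5′ to 3′. They are shown because Ncf1 and Cybb moved in opposite directions over time in the data below. Capitals mark matches to GAAANNGAAA, the type of letters that interferon response factors bind, or to TTCNNNGAA, the type that STAT proteins bind, on either strand.
Ncf1 promoter: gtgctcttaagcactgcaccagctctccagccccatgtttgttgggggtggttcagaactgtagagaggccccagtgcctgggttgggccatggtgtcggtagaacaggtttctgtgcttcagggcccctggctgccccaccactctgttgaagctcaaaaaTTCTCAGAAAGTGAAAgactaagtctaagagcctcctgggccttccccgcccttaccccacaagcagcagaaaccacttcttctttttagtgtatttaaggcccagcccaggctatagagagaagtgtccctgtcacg
Cyba promoter: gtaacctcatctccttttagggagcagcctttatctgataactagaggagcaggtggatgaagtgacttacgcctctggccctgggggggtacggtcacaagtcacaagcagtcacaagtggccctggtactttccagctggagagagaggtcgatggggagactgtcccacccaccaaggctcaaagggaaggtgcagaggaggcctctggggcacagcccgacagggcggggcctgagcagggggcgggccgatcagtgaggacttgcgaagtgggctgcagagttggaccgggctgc
Cybb promoter: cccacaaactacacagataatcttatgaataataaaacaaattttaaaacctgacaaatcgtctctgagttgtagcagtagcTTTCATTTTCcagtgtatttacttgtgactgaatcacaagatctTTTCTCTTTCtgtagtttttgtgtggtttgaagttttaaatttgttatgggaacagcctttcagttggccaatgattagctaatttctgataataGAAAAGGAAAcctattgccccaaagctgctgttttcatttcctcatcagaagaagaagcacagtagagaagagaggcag
The Ncf1 promoter held 1 match to GAAANNGAAA, starting 82 bases before the transcription start, which overlapped 1 match to TTCNNNGAA starting at 88 bases before it. The Cybb promoter held 3 matches to GAAANNGAAA, starting 168, 124 and 29 bases before the start, and none to TTCNNNGAA. The Cyba promoter held neither. Among 32851 mouse promoters of the same length, 3.44% held GAAANNGAAA, 8.3% held TTCNNNGAA, 0.454% held both and 0.015% held GAAANNGAAA at least 3 times. The ETS core GGAA was found in all 3 promoters and in 96% of all promoters, and the AP-1 type TGAGTCA in none of the 3 and in 5.2% of all. The motifs were chosen with the sequences in view, and a match is a description of letters, not of binding. The Ncf4 promoter was not printed here.

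Of the 8 probe sets, 6 were among the 27022 brightest that entered the fit. The remaining Cybb probe sets fell below its limit of a mean log2 intensity of 4.12. Cybb 1436779_at had intensities between 9.88 and 13.05 and a mean log2 of 3.53, and Cybb 1422978_at lay between 7.33 and 11.96 with a mean of 3.13. Both were near the dimmest values of the array at all times. They are shown in the plot of intensities by array and were not tested. Levels are compared only within a probe set, since the brightness of different probe sets cannot be set against each other.

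**Figure D1:**
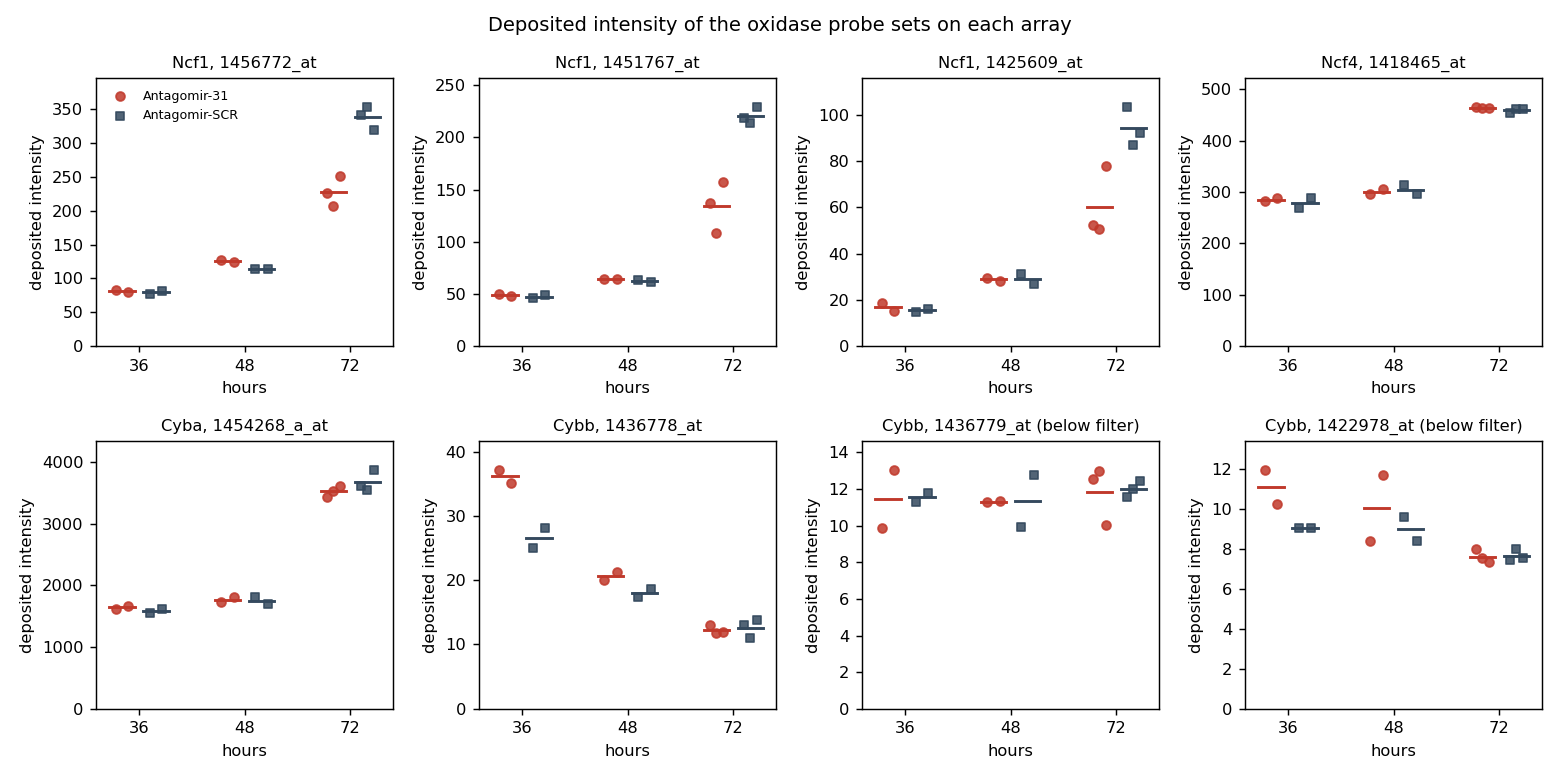
Deposited RMA intensity (linear scale, from 0) of the 8 probe sets on each array at 36, 48 and 72 h. Each point is an array, and each bar is the mean of its group. Ncf1 was lower with Antagomir-31 on every 72 h array in all 3 probe sets, whereas the 36 h arrays of the treatments lay together.

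Ncf1, the cytosolic organizer that carries the other cytosolic subunits to the membrane, was the subunit that set the treatments apart at 72 h. The intensity of its brightest probe set, 1456772_at, was 225.8, 207.4 and 251.8 on the Antagomir-31 arrays and 341.4, 353.0 and 319.9 on the Antagomir-SCR arrays. Every Antagomir-31 array was below every Antagomir-SCR array, with means of 228.4 ± 22.3 (SD, n = 3) and 338.1 ± 16.8 (SD, n = 3). The log2 difference, Antagomir-31 minus Antagomir-SCR, was -0.57 with a standard error of 0.068, or 1.48-fold lower. Probe set 1451767_at read 137.5, 108.5 and 157.0 with Antagomir-31 and 218.4, 214.2 and 229.1 with Antagomir-SCR. Its log2 difference was -0.73 with a standard error of 0.102. Probe set 1425609_at, the dimmest, read 52.56, 50.49 and 77.75 against 103.4, 87.14 and 92.29, with a log2 difference of -0.67 and a standard error of 0.144. Its groups again did not overlap, with Antagomir-31 replicate 4 closest to the controls. Over all 27022 probe sets, 12.2% had every Antagomir-31 array below every Antagomir-SCR array at 72 h, and 9.03% had the reverse. At this time 26 probe sets passed an adjusted p of 0.05 (limma with Benjamini-Hochberg adjustment), which is 0.0962% of all. Of all probe sets, 0.0925% had a lower log2 difference than Ncf1 1456772_at, a rank that the choice of the gene implies.

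Beside Ncf1, some marker sums also differed between the treatments at 72 h. The summed intensity of the 9 dendritic cell markers on the array lay at 381.9 to 446.8 on the Antagomir-31 arrays, below the 471.0 to 486.4 of the control arrays. Most of that came from Cd74, the invariant chain of MHC class II molecules, at 180.2 to 236.1 against 260.4 to 280.9. Without Cd74 the sums were 201.7 to 213.3 and 205.5 to 218.6 and overlapped. The log2 difference of Cd74 was -0.32 with a standard error of 0.096 and did not pass the test (limma, adjusted p = 0.16). The T and Th1 marker sum was 24940 to 25470 against 25700 to 26120, and that of the 6 CD8 T and NK cell markers on the array, led by Klrk1, Cd8a and Eomes, was 2408 to 2561 against 2563 to 2899, both again without overlap. The sums overlapped for macrophages and monocytes (762.9 to 783.6 against 692.7 to 778.4, led by Ctss, Csf1r and Cd14), for neutrophils (287.0 to 297.2 against 265.7 to 289.2, led by Cxcr2, Ngp and Ltf) and for B cells (193.8 to 213.9 against 196.0 to 203.7, led by Cd22, Vpreb3 and Pax5). RNA integrity, read as the excess of 3′ over 5′ actin control signal on the log2 scale, was 0.213 to 0.267 on the Antagomir-31 arrays against 0.211 to 0.236. The part of these markers in the Ncf1 difference was not tested.

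The other subunits did not share the 72 h difference of Ncf1 in size. Ncf4, a cytosolic subunit that binds phosphoinositides, had intensities of 465.6, 463.4 and 463.0 with Antagomir-31 and 454.5, 461.0 and 461.9 with Antagomir-SCR. Every Antagomir-31 array was higher, by a log2 difference of 0.015 with a standard error of 0.044. Cyba, the small membrane subunit that docks Ncf1, read 3437, 3527 and 3621 against 3614, 3541 and 3876, with overlapping arrays and a log2 difference of -0.059 with a standard error of 0.052. Cybb, the catalytic subunit, was dim at 13.02, 11.76 and 12.01 against 13.02, 11.03 and 13.76 in probe set 1436778_at, with a log2 difference of -0.035 and a standard error of 0.082. These values are descriptions too, as they come from the contrast that chose the group.

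**Figure D2:**
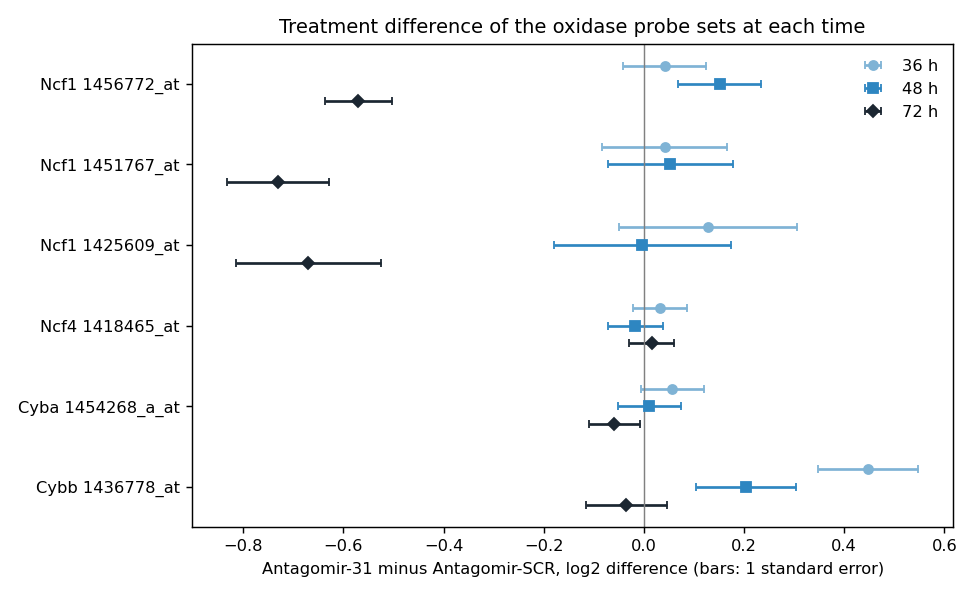
Log2 difference of Antagomir-31 minus Antagomir-SCR (horizontal axis) for the 6 probe sets in the fit at 36 h, 48 h and 72 h. Bars are 1 standard error from the fit. The 3 Ncf1 probe sets sit between -0.73 and -0.57 at 72 h and between -0.0031 and 0.15 at 36 and 48 h, and Cybb 1436778_at sits at 0.45 at 36 h.

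The arrays of 36 h and 48 h were not used in choosing the group, and there none of the 6 probe sets passed the test between the treatments. No probe set of the array passed at 36 h (0%), at 48 h (0%) or on the average of both times (0%), while 1441, 1648 and 1710 of 27022 had an unadjusted p under 0.05 in limma. Without Antagomir-SCR replicate 2 of 48 h, 11 probe sets passed at 48 h, none of them of the oxidase subunits. Ncf1 1456772_at read 83.11 and 80.08 with Antagomir-31 and 76.90 and 81.67 with Antagomir-SCR at 36 h, and the groups overlapped. At 48 h it read 127.8 and 124.4 against 113.5 and 113.7, so that both Antagomir-31 arrays were higher, with a log2 difference of 0.15 and a standard error of 0.083 (limma, adjusted p = 0.88). Ncf1 1451767_at gave 64.49 and 64.75 against 63.29 and 61.35 at 48 h, a log2 difference of 0.053 with a standard error of 0.125. Ncf1 1425609_at gave 29.51 and 28.20 against 31.36 and 26.65, and its groups overlapped. Thus no Ncf1 probe set was lower on both Antagomir-31 arrays at 48 h. The share of probe sets with both Antagomir-31 arrays above both controls at 48 h was 14.1% over the whole array. The log2 difference at 72 h minus that at 48 h was -0.72 (standard error 0.107), -0.78 (0.161) and -0.67 (0.228) for the 3 Ncf1 probe sets in the order above, given without a test because it holds the 72 h contrast.

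Cybb 1436778_at had the largest early difference among the 6 probe sets. At 36 h it read 37.17 and 35.18 with Antagomir-31 and 24.99 and 28.10 with Antagomir-SCR, without overlap. The log2 difference was 0.45 with a standard error of 0.10, which had an unadjusted p of 0.000768 and did not pass over the whole array (limma, adjusted p = 0.50). At 48 h it read 20.01 and 21.32 against 17.34 and 18.58, again without overlap, with a log2 difference of 0.20 (standard error 0.10, limma, adjusted p = 0.84). On the average of both times the log2 difference was 0.33 with a standard error of 0.071 (limma, adjusted p = 0.30). All 4 Antagomir-31 arrays of these times were higher than the controls of their time, yet the other Cybb probe sets in the plot of intensities were too dim to be set beside it. Of all probe sets, 14.9% had both Antagomir-31 arrays higher at 36 h.

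The remaining early values were small. Ncf4 read 281.9 and 288.9 against 269.8 and 288.7 at 36 h and 297.1 and 305.2 against 312.9 and 296.6 at 48 h, with log2 differences of 0.032 (standard error 0.054) and -0.017 (0.054). Cyba read 1620 and 1675 against 1557 and 1611 at 36 h, where the arrays did not overlap, and 1728 and 1808 against 1819 and 1692 at 48 h, where they did. Its log2 differences were 0.057 (standard error 0.063) and 0.011 (0.063). Of the 6 probe sets in the fit, 6 were above 0 at 36 h and 4 at 48 h, beside 49.8% and 47.3% of all probe sets. The count at 36 h was 3 without Antagomir-SCR replicate 1 of that time, and that at 48 h was 3 to 6 when 1 array was left out. Neither Ncf4 nor Cyba passed the test at either time (limma, adjusted p = 1 for each).

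Over the time after reactivation the subunits diverged. For these comparisons the values were quantile normalized over all 14 arrays, because the median of log2 intensity of the deposited values lay 0.281 higher at 72 h and -0.0644 away at 48 h, relative to 36 h. Arrays of one time may have been handled together, and then time and handling cannot be told apart. In the Antagomir-SCR cells, Ncf1 rose from 36 to 48 h in 1456772_at and 1451767_at. The log2 changes were 0.56 (standard error 0.083, adjusted p = 0.00065) and 0.46 (0.125, adjusted p = 0.019) by limma. For 1451767_at the call was lost in 2 of the 4 runs that left out 1 array. Ncf1 1425609_at was higher by 1.02 (0.178) on the log2 scale, given without a test. Its mean log2 intensity with Antagomir-SCR at 36 h was 3.95, below the limit on low values of 4.12. It thus passed that limit through its later arrays. Cyba rose by 0.21 (0.060, limma, adjusted p = 0.022), a call that was lost in 5 of 11 alternatives, without quantile normalization and in 3 of 4 runs that left out 1 array among them, with log2 changes of 0.147 to 0.261. Cybb 1436778_at was lower by 0.48 on the log2 scale (standard error 0.103). This is given without a test, because the probe set passed the limit on low values through its early arrays. Ncf4 had 0.16 (0.056, limma, adjusted p = 0.053). Of the 6 probe sets in the fit, 4 were past the threshold upward, namely Cyba and the 3 probe sets of the single gene Ncf1. Among these, 1425609_at counts only as a description. Of all probe sets, 14.4% rose and 13.2% fell. With Cybb included the count past the threshold was 5. It came to 3 without Antagomir-SCR replicate 1 of 36 h, and also without replicate 1 of 48 h.

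With Antagomir-31, Ncf1 also rose from 36 to 48 h. For 1456772_at and 1451767_at the log2 changes were 0.66 (adjusted p = 0.00023) and 0.48 (adjusted p = 0.015) by limma, with standard errors of 0.083 and 0.125. The change of 1425609_at was 0.89 (standard error 0.178), given without a test. Its mean log2 intensity with Antagomir-31 at 36 h was 4.08, again below the limit of 4.12. The call of 1451767_at was lost in each of the 4 runs that left out 1 array. Cybb 1436778_at was lower by 0.72 (standard error 0.103), again given without a test. Cyba at 0.17 (limma, adjusted p = 0.052) and Ncf4 at 0.12 (limma, adjusted p = 0.13) did not pass. Of the 6 probe sets, 3 were past the threshold upward, all of the single gene Ncf1. Among these, 1425609_at again counts only as a description. Of all probe sets, 13.7% rose and 13.3% fell.

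From 48 to 72 h the Ncf1 values share the 72 h arrays with the contrast by which the gene was chosen, and are therefore given without a test. In the Antagomir-SCR cells the mean quantile normalized intensity of Ncf1 1456772_at went from 128.1 ± 1.10 (SD, n = 2) to 297.6 ± 17.2 (SD, n = 3), a log2 change of 1.21 with a standard error of 0.076. In the Antagomir-31 cells it went from 141.7 ± 1.94 (SD, n = 2) to 200.8 ± 19.6 (SD, n = 3), a log2 change of 0.50 with a standard error of 0.076. The other Ncf1 probe sets had log2 changes of 1.44 (standard error 0.114) and 1.31 (0.162) with Antagomir-SCR and 0.68 (0.114) and 0.66 (0.162) with Antagomir-31. Ncf1 was thus higher at 72 h than at 48 h on every array of both treatments, and less so with Antagomir-31. Markers of other cells and the actin signal moved over the same step. The markers went both ways, at a step where 32.7% of all probe sets rose and 30.0% fell with Antagomir-SCR. On the deposited scale, Cd74 lay between 75.37 and 88.78 at 48 h and between 180.2 and 280.9 at 72 h. Cxcr2, a chemokine receptor of neutrophils, lay between 12.88 and 13.77 at 48 h and between 100.2 and 114.7 at 72 h, and the B cell marker sum between 127.2 and 136.3 and then between 193.8 and 213.9. The log2 excess of 3′ over 5′ actin signal was 0.370 to 0.410 at 48 h and 0.211 to 0.267 at 72 h. Deposited medians were also higher at 72 h than at 48 h. After quantile normalization with Antagomir-SCR, 2 of 3 B cell markers in the fit rose. Of 6 macrophage and monocyte markers 0 rose and 4 fell, while of 5 dendritic cell markers 2 rose and 1 fell. Of 6 neutrophil markers 1 rose and 1 fell, and of 4 CD8 T and NK cell markers 1 rose and 2 fell. The part of these markers and of the actin signal in the change of Ncf1 was not tested.

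Each partner moved in the same direction in both treatments between 48 and 72 h. Cyba rose by a log2 change of 0.86 (standard error 0.054) with Antagomir-SCR and of 0.78 (0.054) with Antagomir-31, which had adjusted p-values of 5.7e-08 and 1.5e-07 in limma. Ncf4 rose by 0.27 (0.051) and 0.32 (0.051), with adjusted p-values of 5e-04 and 0.00016 in limma. Cybb 1436778_at had log2 changes of -0.82 (0.094) and -1.08 (0.094). This probe set passed the limit on low values through its early arrays, with mean log2 intensities of 5.18 (Antagomir-31) and 4.73 (Antagomir-SCR) at 36 h. At 72 h it stood at 3.62 and 3.65, below the limit of 4.12 and near the Cybb probe sets that were not fitted, so its later change is given without a test and its size is uncertain. The background was high at this step, since 32.7% of all probe sets rose and 30.0% fell with Antagomir-SCR, and 33.1% rose and 28.8% fell with Antagomir-31. Cyba lay above 95.3% of all probe sets in its change with Antagomir-SCR, Ncf4 above 73.1% and Cybb above 5.45%.

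**Figure D3:**
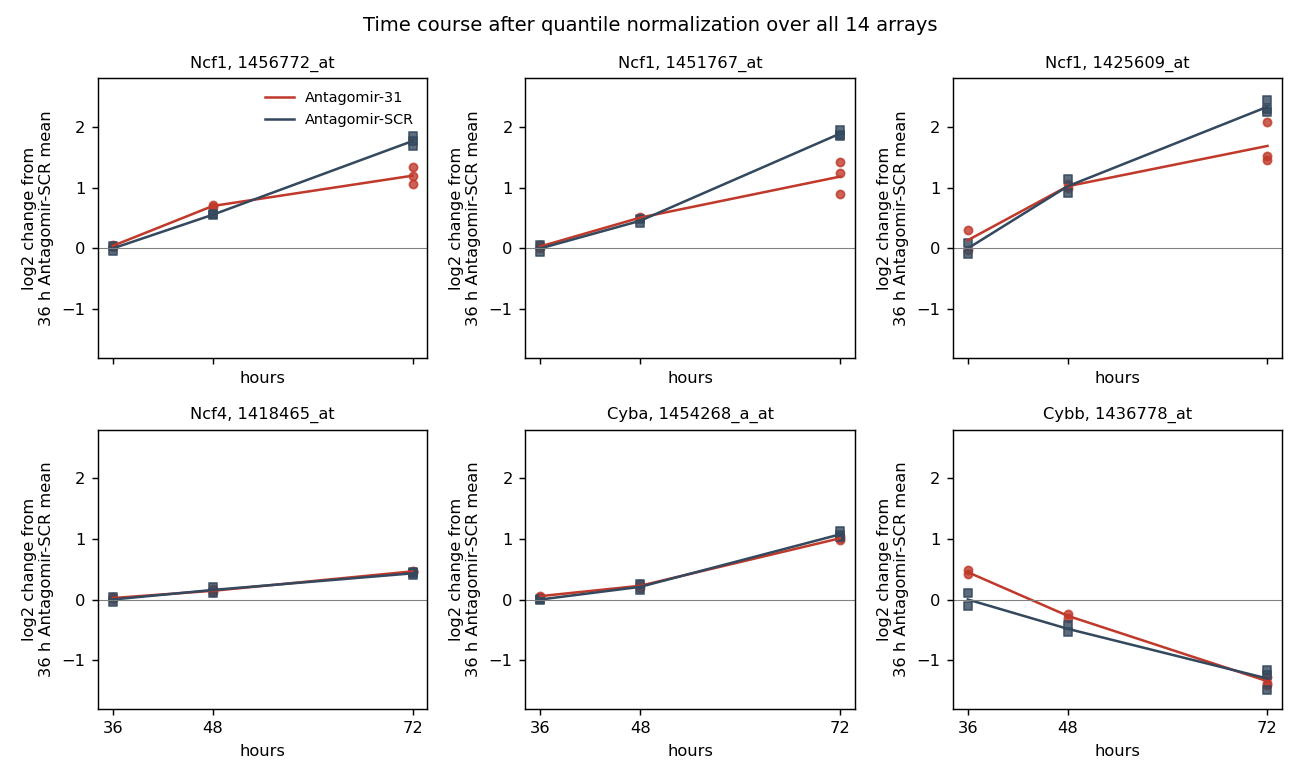
Log2 change from the mean of the 36 h Antagomir-SCR arrays against hours after treatment, for the 6 probe sets in the fit, on values quantile normalized over all 14 arrays. Points are arrays and lines join group means. Ncf1 climbs in both treatments and ends lower with Antagomir-31, Cyba and Ncf4 climb alike, and Cybb declines.

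The order of the 6 groups was the same in the brightest Ncf1 probe sets, 1456772_at and 1451767_at. On the quantile normalized scale, 1456772_at was lowest at 36 h with Antagomir-SCR (mean 87.27) and Antagomir-31 (89.84), and these neighbours overlapped. It then stood at 128.1 at 48 h with Antagomir-SCR, 141.7 at 48 h with Antagomir-31, 200.8 at 72 h with Antagomir-31 and 297.6 at 72 h with Antagomir-SCR, and none of these neighbours overlapped. In 1425609_at the 48 h groups overlapped as well. Cybb 1436778_at ran the other way, from 11.17 and 11.56 at 72 h, which overlapped, over 20.32 (Antagomir-SCR) and 23.57 (Antagomir-31) at 48 h to 28.45 (Antagomir-SCR) and 38.79 (Antagomir-31) at 36 h. Cyba went from 1646 and 1711 at 36 h through 1903 and 1926 at 48 h to 3313 and 3464 at 72 h, where the treatments overlapped at 48 and 72 h. Ncf4 went from 302.5 at 36 h with Antagomir-SCR to 416.9 at 72 h with Antagomir-31.

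The genes whose pattern was most like that of Ncf1 1456772_at were sought over the 14 arrays after the mean of each time was subtracted, among 13077 genes. The measure takes up the 72 h difference by which Ncf1 was chosen and is given without a test, and points of one time share their normalization. The other Ncf1 probe sets had Pearson's r of 0.955 and 0.886. The most alike were Scd2, a fatty acid desaturase (0.969), Srebf2, the transcription factor of sterol synthesis (0.964), Ccdc82 (0.936), Fads2, another fatty acid desaturase (0.925), and Tcf3, an E protein transcription factor (0.925). Their log2 differences at 72 h were -0.25 (standard error 0.042), -0.23 (0.047), -0.27 (0.044), -0.46 (0.077) and -0.37 (0.070) in this order. Over the 8 arrays of 36 h and 48 h alone their r was between 0.599 and 0.782. The partner subunits had r of 0.378 for Cyba, 0.155 for Cybb 1436778_at and -0.159 for Ncf4. Over the 8 early arrays these were 0.169, 0.632 and 0.0678, while the other Ncf1 probe sets had 0.789 and 0.357. Without the subtraction of the mean of each time they were 0.954 for Cyba, -0.901 for Cybb 1436778_at and 0.947 for Ncf4, and 0.977 for Cd74. Cd74 had 0.764 over all arrays and -0.032 over the arrays of 36 h and 48 h.

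Other genes of the oxidase were read from a list of 14 assembly and activation genes, of which 11 were in the fit by their brightest probe set and none passed between the treatments at 36, 48 or 72 h. Rac1 and Rac2 are the GTPases that complete the active complex. Rac1 read 2351 to 2507 on the Antagomir-31 arrays, against 2547 to 2675 in the controls at 72 h, without overlap. Of all probe sets, 12.2% had every Antagomir-31 array lower at this time. The log2 difference of Rac1 was -0.095 with a standard error of 0.047 (limma, adjusted p = 0.39). By PCR relative to Hprt at 72 h, the paper instead reported Rac1 as upregulated with Antagomir-31. Rac2 read 2818 to 2970 against 2870 to 3079, with a log2 difference of -0.034 and a standard error of 0.053 (limma, adjusted p = 0.82). Cybc1, a chaperone needed for the Cybb protein, read 333.2 to 355.5 against 350.1 to 369.5, with a log2 difference of -0.058 and a standard error of 0.044 (limma, adjusted p = 0.59).

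Prkcd and Akt1, kinases known to phosphorylate Ncf1, had the smallest p-values of that list at 72 h. Prkcd, a protein kinase C isoform, read 208.7 to 243.4 on the Antagomir-31 arrays, against 250.2 to 288.4 in the controls. The arrays did not overlap, with a log2 difference of -0.28 and a standard error of 0.070 (limma, adjusted p = 0.12). Such a separation downward was found in 12.2% of all probe sets at 72 h. Akt1 read 921.6 to 1064 against 1094 to 1176, with a log2 difference of -0.17 and a standard error of 0.060 (limma, adjusted p = 0.22), and of its other 3 probe sets in the fit only 1 had the same sign. The median log2 difference of the 11 genes was -0.058 at 72 h and 4 of the 11 were above 0. Over all probe sets the median was -0.0055 and 47.8% were above 0. At 36 h Prkcb was nearest to the threshold with -0.38 (standard error 0.105, limma, adjusted p = 0.62), where its 1 other probe set in the fit had the opposite sign, and at 48 h Arhgdib, an inhibitor that holds Rac GTPases in the cytosol, with 0.14 (0.094, limma, adjusted p = 0.92).

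Over time, members of this list went both ways. From 48 to 72 h with Antagomir-SCR 7 of the 11 rose and 3 fell, and with Antagomir-31 the counts were 7 and 3 as well. Of all probe sets, 32.7% rose and 30.0% fell with Antagomir-SCR, and 33.1% and 28.8% with Antagomir-31. Akt1 rose by a log2 change of 1.68 (standard error 0.066), Prkcd by 0.76 (0.082), Rac2 by 0.75 (0.063) and Arhgdib by 0.62 (0.087) with Antagomir-SCR. Prkcb, another protein kinase C isoform, fell by 1.63 on the log2 scale (0.095), and Cybc1 fell by 0.48 (0.051). Rac1 had 0.045 (0.055, limma, adjusted p = 0.50). With Antagomir-31 the same step gave 1.45 for Akt1, 0.60 for Prkcd, 0.70 for Rac2, 0.50 for Arhgdib, -1.64 for Prkcb and -0.56 for Cybc1, and all of these passed in limma. From 36 to 48 h with Antagomir-SCR, Hvcn1, the proton channel that balances the charge moved by the oxidase, rose by 0.22 (0.058) and Prkcd by 0.26 (0.089), while Vav1, an exchange factor of Rac, fell by 0.21 (0.069). With Antagomir-31 this step raised Prkcb by 0.48 (0.104) and Hvcn1 by 0.22 (0.058), and Vav1 fell by 0.23 (0.069) and Prkca by 0.22 (0.070).

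Of 11 genes for other NADPH oxidases and their organizers, only 4 were in the fit, and none passed the test between the treatments at 36, 48 or 72 h. At 72 h the median log2 difference of the 4 was 0.11 and 4 of the 4 were above 0, beside 47.8% of all probe sets. At 72 h, Sh3pxd2a, a scaffold related to Ncf1, had a log2 difference of 0.15 (standard error 0.057, limma, adjusted p = 0.26), Noxo1, the organizer of Nox1, had 0.13 (0.082, limma, adjusted p = 0.51) and Duoxa1, a maturation factor of the dual oxidases, had 0.097 (0.100, limma, adjusted p = 0.71). From 48 to 72 h with Antagomir-SCR, Sh3pxd2b fell by 0.60 on the log2 scale (0.096), Noxo1 by 0.40 (0.089) and Duoxa1 by 0.39 (0.112). With Antagomir-31 2 of the 4 fell, Sh3pxd2b by 0.47 (0.096) and Noxo1 by 0.38 (0.089), beside 28.8% of all probe sets. Noxo1 and Sh3pxd2b thus fell at the step over which Ncf1 was higher on every array. From 36 to 48 h the direction was up for Sh3pxd2b at 0.42 (0.105) and down for Sh3pxd2a at -0.28 (0.070) with Antagomir-SCR, and up for Noxo1 at 0.53 (0.098) and Sh3pxd2b at 0.31 (0.105) with Antagomir-31.

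Enzymes that remove reactive oxygen species or keep thiols reduced made a list of 27 genes with 24 in the fit. None passed between the treatments at 36, 48 or 72 h. The median log2 difference at 72 h was -0.035 with 11 of 24 above 0, beside 47.8% of all probe sets. The smallest p-values at 72 h belonged to Gpx4, which reduces lipid peroxides, at -0.19 (standard error 0.058, limma, adjusted p = 0.16), Prdx4, a peroxiredoxin of the endoplasmic reticulum, at -0.15 (0.046, limma, adjusted p = 0.18), with the opposite sign in its 2 other probe sets, and Nfe2l2, the transcription factor of the antioxidant response, at -0.27 (0.090, limma, adjusted p = 0.20). At 36 h the NADPH quinone reductase Nqo1 was nearest with 0.31 (0.080, limma, adjusted p = 0.58), and at 48 h the glutathione reductase Gsr with -0.17 (0.088, limma, adjusted p = 0.86), with the opposite sign in its 1 other probe set. From 48 to 72 h with Antagomir-SCR 12 of the 24 rose and 6 fell, beside 32.7% and 30.0% of all probe sets. Slc7a11, the cystine importer, fell by 1.91 on the log2 scale (0.081), Srxn1, which repairs oxidized peroxiredoxins, fell by 1.48 (0.059), while Gss, the glutathione synthetase, rose by 0.77 (0.053), Prdx4 by 0.57 (0.053), Txnrd1 by 0.42 (0.055) and Gpx1 by 0.41 (0.047). With Antagomir-31 12 rose and 7 fell, beside 33.1% and 28.8% of all probe sets. Among those that fell were Slc7a11 at -1.93 (0.081), Srxn1 at -1.47 (0.059) and Nfe2l2 at -0.96 (0.097). From 36 to 48 h 4 rose and 5 fell with Antagomir-SCR, with Gpx3 at -0.63 (0.102) and Hmox1, the inducible heme oxygenase, at 0.42 (0.101), and 5 rose and 5 fell with Antagomir-31, with Gpx3 at -0.39 (0.102). At this step 14.4% of all probe sets rose and 13.2% fell with Antagomir-SCR, and 13.7% and 13.3% with Antagomir-31.

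The oxidase uses NADPH, and 12 of 13 genes that supply it were in the fit. None passed between the treatments at 36, 48 or 72 h, and the median log2 difference at 72 h was -0.016. At 72 h the transhydrogenase Nnt read 366.7 to 382.8 on the Antagomir-31 arrays, against 306.3 to 312.4 in the controls, without overlap. Such a separation upward was found in 9.03% of all probe sets. The log2 difference of Nnt was 0.28 with a standard error of 0.098 (limma, adjusted p = 0.23). Idh2, the mitochondrial isocitrate dehydrogenase, had -0.17 (0.063, limma, adjusted p = 0.25) and Me1, the cytosolic malic enzyme, had 0.13 (0.054, limma, adjusted p = 0.30). At 48 h Me1 had 0.26 (0.066, limma, adjusted p = 0.59), and at 36 h Pgd, of the pentose phosphate pathway, had 0.079 (0.059, limma, adjusted p = 1). From 48 to 72 h, 8 of 12 rose and 2 fell in each treatment. Of all probe sets, 32.7% rose and 30.0% fell with Antagomir-SCR, and 33.1% and 28.8% with Antagomir-31. Me1 rose by a log2 change of 1.56 (0.060) with Antagomir-SCR and of 1.45 (0.060) with Antagomir-31, and Pgls of the pentose phosphate pathway by 0.80 (0.059) and 0.68 (0.059). Mthfd2, of mitochondrial folate metabolism, fell by 0.86 (0.061) and by 1.03 (0.061), and Idh1 fell by 0.46 (0.084) and by 0.52 (0.084). From 36 to 48 h 3 rose and 1 fell with Antagomir-SCR, with Idh1 at 0.30 (0.092) and Me1 at -0.24 (0.065), and 1 rose with Antagomir-31, namely Mthfd2 at 0.24 (0.066). At this step 14.4% of all probe sets rose and 13.2% fell with Antagomir-SCR, and 13.7% and 13.3% with Antagomir-31.

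**Figure D4:**
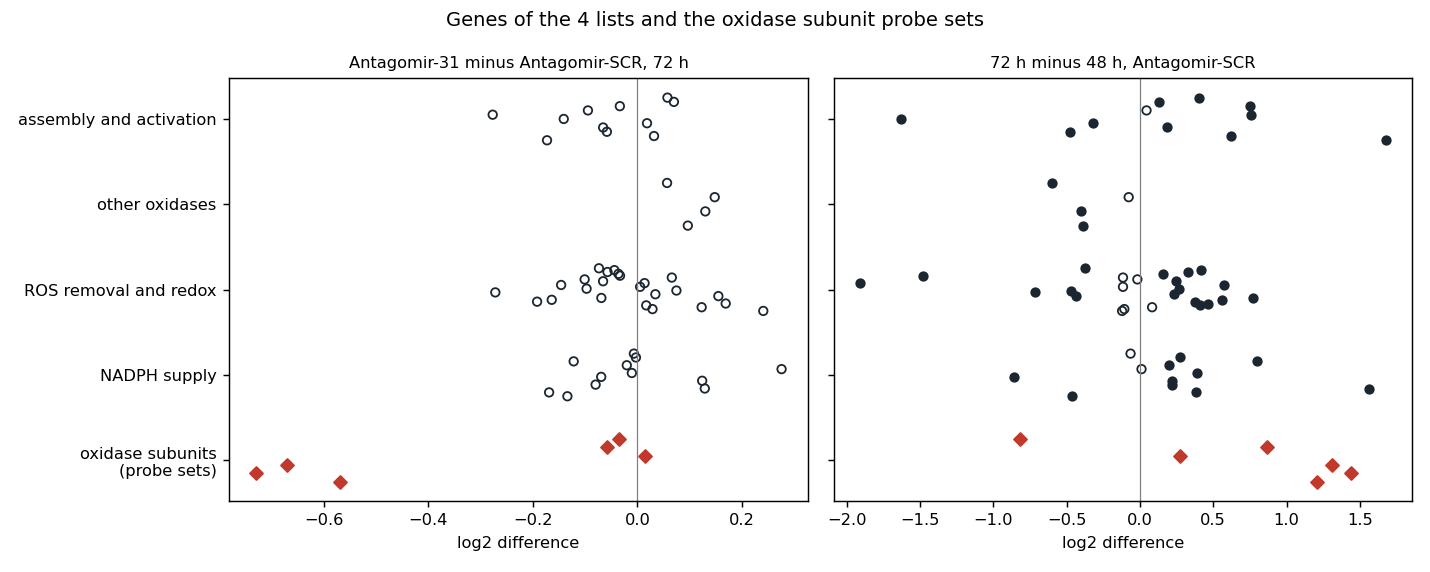
Log2 differences of the genes of 4 lists and of the 6 oxidase subunit probe sets in the fit (red diamonds, not tested in this picture), for Antagomir-31 minus Antagomir-SCR at 72 h on the left and 72 h minus 48 h in Antagomir-SCR cells on the right. Filled circles passed an adjusted p of 0.05 and open circles did not. At 72 h every list gene lies between -0.28 and 0.28 and is open, whereas the 3 Ncf1 diamonds lie at -0.73 to -0.57, and on the right genes of the assembly, redox and NADPH lists passed in both directions.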

How the data were processed

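RNA of 14 samples was hybridized to Affymetrix Mouse 430 2.0 arrays. Per the labels and the study's methods, GCOS and the RMA method of the R package affy were used by the authors to make the values (versions: not given in the sources used here), and the deposited values are intensities on a linear scale. RMA pulls dim probe sets together, so that fold changes of dim genes such as Cybb come out smaller. The values look as if normalized within each time point.

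Probe sets were named from the platform annotation, in which 34945 had 1 symbol, 932 several and 9160 none. Intensities were put on the log2 scale and the brightest 60% of the probe sets by mean, 27022 of 45037, were fitted with limma 3.58.1 in R 4.3.3 over 6 groups. Treatments were compared within each time on the deposited scale and times within each treatment after quantile normalization. Adjusted p-values are Benjamini-Hochberg over all 27022 probe sets, and under 0.05 was called. The procedure was tested on simulated data. The members, the gene lists, the markers and the tests were chosen with earlier results of these data known.

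Genes named are all probe sets of the members, Rac1, Rac2 and Cybc1, up to 6 genes per list and comparison with the smallest p past the threshold (else the 3 smallest), the 5 genes most like Ncf1, and the 3 brightest of each marker list. Not all of these are printed for 36 h, 48 h and the time steps. Some list genes are not reported here, and MAS5 calls and the study's RNA sequencing were not used here. Alternatives covered the normalization, the filter, the spread model, the choice of probe set, the samples in the fit, the replicate number as a block and leaving out each array. One Antagomir-SCR array of 72 h (replicate 4) was written with more decimals than the others, and no 2 arrays held the same values in more than a share of 0.016 of the probe sets.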

Additional observations from a re-analysis of the deposited data

Results flagged for a closer look

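The treatment difference of Ncf1 had opposite signs at 48 h and 72 h in its brightest probe sets. For 1456772_at the log2 difference was 0.151 at 48 h and -0.57 at 72 h, and for 1451767_at it was 0.0525 at 48 h and -0.731 at 72 h. In both of these probe sets both Antagomir-31 arrays were higher than both controls at 48 h, and at 72 h all 3 were lower than all 3. Over the whole array, 14.1% of probe sets were apart and higher at 48 h, and 12.2% were apart and lower at 72 h. The standard errors at 48 h were 0.083 and 0.125. In the remaining Ncf1 probe set, 1425609_at, the log2 difference at 48 h was -0.0031 and the groups overlapped. The difference between the times was not tested, because Ncf1 was chosen by its 72 h change. The groups held 2 or 3 arrays, so a single array far from its group could not be looked for.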

How the results depend on the processing

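The log2 difference of Ncf1 1456772_at at 72 h stayed between -0.642 and -0.502 over 15 alternatives, and both ends came from leaving out 1 array. No member probe set was called at 36 h, 48 h or on their average under any alternative run, and the early difference of Cybb 1436778_at stayed between 0.283 and 0.368. Of the 6 member probe sets, 6 were above 0 at 36 h, and 3 without Antagomir-SCR 36h replicate 1. Over the whole array, 1 probe set passed at 36 h under the stricter filter (mean log2 of 6 or more), and 11 at 48 h without Antagomir-SCR 48h replicate 2. List genes called at 72 h numbered 0 at the main setting, 1 with a mean log2 of at least 6 (Prkcd), 2 with a trend in the prior variance (Prkcd and Gpx4), and 0 to 1 when 1 array was left out (Prkcd, without Antagomir-31 72h replicate 4); at 36 h and 48 h they stayed at 0. Member probe sets called from 36 to 48 h with Antagomir-SCR were 5, with 3 when the highest probe set per gene was taken and 3 to 5 when 1 array was left out (3 without replicate 1 of 36 h, and 3 without replicate 1 of 48 h). With Antagomir-31 they were 4, with 2 for the highest probe set per gene and 3 when 1 array was left out. The counts of 5 and 4 hold Cybb 1436778_at, whose change at this step is a description. From 48 to 72 h the count past the threshold was 6 in each treatment, also when 1 array was left out, and 3 for the highest probe set per gene; it holds the 3 Ncf1 probe sets and Cybb, whose changes at this step are descriptions, so only Ncf4 and Cyba count as tested. Over the whole array the calls at 72 h ran from 2 to 528 beside 26. Of the 5 genes most like Ncf1, 3 were kept after quantile normalization and 0 on the 8 arrays of 36 h and 48 h.

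Arrays with the same replicate number showed no clear pairing. The correlation of their deviations was 0.082 at 36 h, -0.13 at 48 h and -0.011 to 0.12 at 72 h. With 2 or 3 arrays in a group, these values cannot tell whether arrays of the same number shared a culture. With a replicate block 0 members were called at 36 h and 0 at 48 h, the Ncf1 difference at 72 h was -0.57, and 8 instead of 26 probe sets were called over the array at 72 h. With the numbers crossed at 48 h, an alternative added after seeing the data, 0 members and 0 probe sets were called at 48 h.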
